A study of Mus musculus with 12 samples.

Results

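The colony-stimulating factors and their receptors were followed through bone marrow-derived macrophages (BMDMs) that were left untreated (Con) or were polarized by M1 or M2 stimulation. The genes are the 3 ligands *Csf1*, *Csf2* and *Csf3* and the 5 receptor chains *Csf1r*, *Csf2ra*, *Csf2rb*, *Csf2rb2* and *Csf3r*. They were chosen by name, through the accession of each array probe, and all 8 had a probe among 32301 genes or transcripts on the array. *Csf1r* and *Csf2rb* had 3 probes each and the other genes 1 probe each, which makes 12 probes.

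The cells came from C57BL/6 mice at an age of 8 weeks. They were grown from marrow for 7 days with M-CSF, the protein that *Csf1* encodes. Per the methods, M-CSF was then depleted for several hours ahead of the stimulation. The WT mice carry an intact *Keap1*, and the KpCKO mice are *Keap1* flox/flox::LysM-Cre, in which the Cre of the LysM locus deletes *Keap1* in myeloid cells and Nrf2, the factor that Keap1 holds down, accumulates. M1 cells received LPS and IFNγ for 6 h and M2 cells received IL-4 for 6 h. In 2 cultures, 1 mouse of each genotype was used, both male in the first and both female in the second, and every mouse gave 1 array per stimulus, so that the 6 groups have 2 arrays each. Sex and culture cannot be told apart, and a value over 2 mice per genotype measures the spread between these mice only. The 4 arrays of a stimulus shared a slide, so stimulus and slide cannot be told apart, while the genotypes of a stimulus lay on the same slide.

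M-CSF binds the tyrosine kinase receptor Csf1r and keeps macrophages alive and dividing. GM-CSF, from *Csf2*, binds the Csf2ra chain, which signals through a common β chain from *Csf2rb*. Mice also have *Csf2rb2*, a close copy of that gene whose product serves the IL-3 receptor. G-CSF, from *Csf3*, binds Csf3r and drives the formation of neutrophils. Csf1r signals by its own kinase, and the other receptors through JAK2 and STAT proteins, whose inhibitors CIS and SOCS are made in response.

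All levels are log2 intensities relative to the 75th percentile of their array, and a difference of 1 on this scale is a doubling of the ratio to that percentile. A level tells a gene's own groups apart and does not rank one gene against another. The percentile lay between 547.7 and 757.1 intensity units on the WT M1 arrays and between 786.6 and 1166 on the other 10, and 59.4% to 71.5% of probes were well above background on an array. None of the spots was saturated. The median of all genes tested differed by 0.13 between M1 and Con in WT and by 0.028 in KpCKO. In WT that median was -0.079 after quantile normalization and 0.40 after normexp background correction. On the log2 scale the KpCKO value of *Keap1* lay -1.46, -1.71 and -1.81 from that of WT in Con, M1 and M2, and *Nqo1*, an Nrf2 target, lay 3.23, 3.50 and 3.52 above it (limma, highest adjusted p of the 6 values 0.0335). All 7 macrophage markers with a probe were above background on every array, *Adgre1*, *Itgam* and *Cd14* among them.

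The 250 bases before the transcription start are shown for *Csf1*, *Csf2rb2* and *Csf3r*, which rose together in M2-stimulated WT cells. They are from RefSeq on GRCm38.p6, at chr3:107760470-107760719 on the minus strand, chr15:78305722-78305971 on the minus strand and chr4:126024409-126024658 on the plus strand. No promoter entry was matched for *Csf3*, *Csf2rb* and *Csf1r*. Capitals mark matches, on either strand, to 6 motifs. These are the antioxidant response element core that Nrf2 complexes bind (TGACNNNGC or TGAGNNNGC), the NF-κB consensus, the STAT6 pair (TTCNNNNGAA), the closer STAT pair (TTCNNNGAA), the AP-1 motif (TGANTCA) and the PU.1 core (GAGGAA).
Csf1: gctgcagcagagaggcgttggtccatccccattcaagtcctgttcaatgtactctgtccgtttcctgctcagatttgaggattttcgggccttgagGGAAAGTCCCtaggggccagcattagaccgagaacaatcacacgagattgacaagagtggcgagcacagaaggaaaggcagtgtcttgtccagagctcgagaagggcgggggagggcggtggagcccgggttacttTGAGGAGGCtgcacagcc
Csf2rb2: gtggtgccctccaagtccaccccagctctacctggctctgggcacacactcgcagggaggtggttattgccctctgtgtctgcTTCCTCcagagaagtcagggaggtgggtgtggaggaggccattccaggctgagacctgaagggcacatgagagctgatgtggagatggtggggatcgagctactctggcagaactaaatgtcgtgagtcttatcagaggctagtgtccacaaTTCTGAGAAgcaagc
Csf3r: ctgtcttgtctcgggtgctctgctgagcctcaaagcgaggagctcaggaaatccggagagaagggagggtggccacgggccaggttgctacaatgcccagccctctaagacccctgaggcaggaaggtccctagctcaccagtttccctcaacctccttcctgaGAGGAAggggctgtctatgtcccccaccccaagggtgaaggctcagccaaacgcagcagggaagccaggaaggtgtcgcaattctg
*Csf1* held 1 match to the NF-κB consensus, from base -154 on the opposite strand, and 1 to the antioxidant response element core, from base -18, counted back from the start. *Csf2rb2* held 1 closer STAT pair from base -15 and 1 PU.1 core from base -167, and *Csf3r* held 1 PU.1 core from base -86. Of 32851 promoter windows of the same length, 3.90% matched the NF-κB consensus, 23.0% the antioxidant response element core, 7.02% the closer STAT pair and 23.3% the PU.1 core. The STAT6 pair (5.85% of windows) and the AP-1 motif (6.75%) had no match in these 3 windows. A match is a run of letters and says nothing of binding in these cells.

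The plot of levels by array shows all 8 genes. Of these, 7 exceeded the background clearly on the 2 arrays of some group and could be tested in a single model of the 6 groups and the culture. *Csf2* was not.

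**Figure D1:**
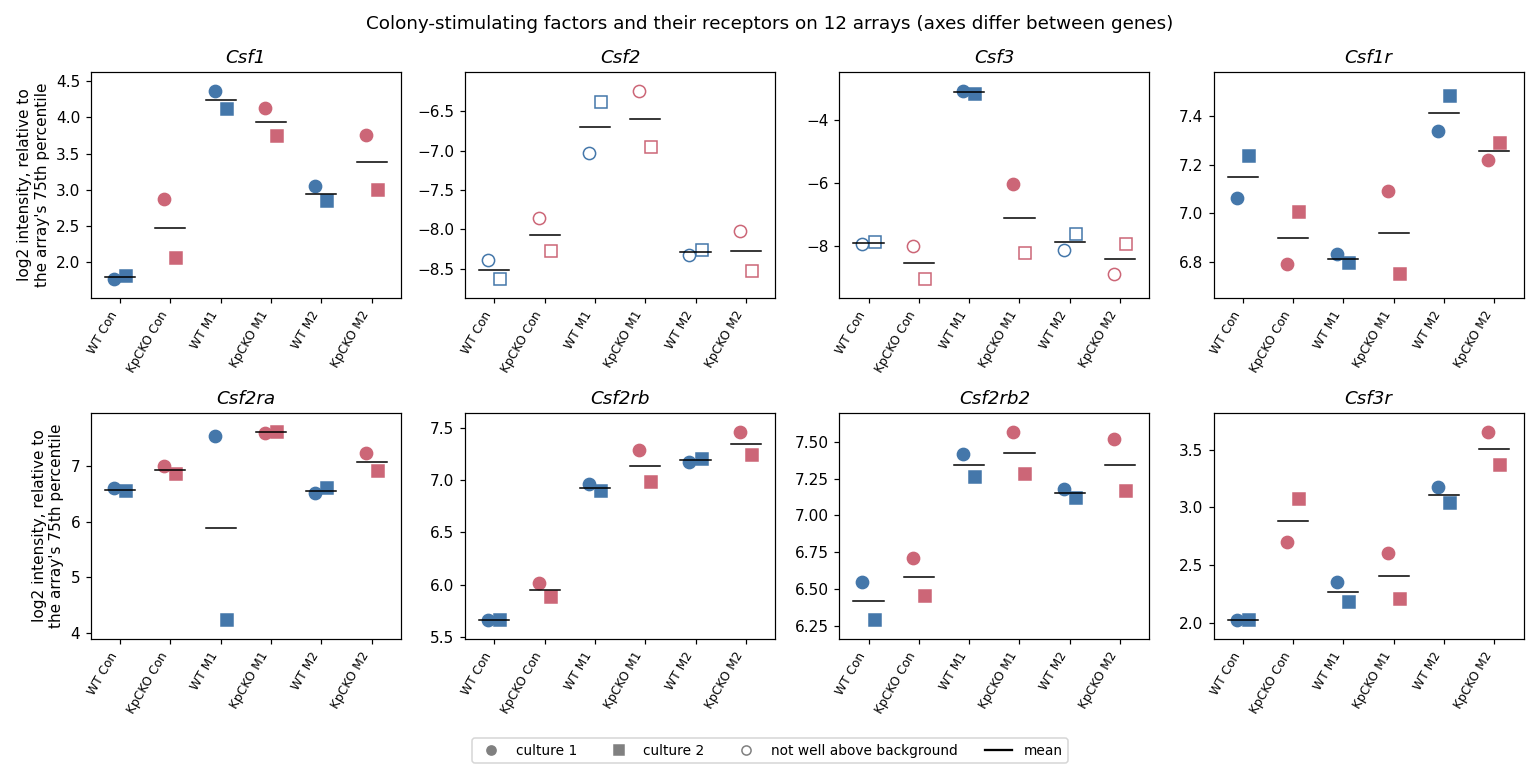
Log2 intensity relative to the array's 75th percentile (vertical axis, different for each gene) of the 8 genes in the 6 groups, by the brightest probe of each gene. Circles are culture 1, squares culture 2, open symbols are values not well above background and bars are group means; *Csf3* is near -3 in WT M1 only, and 1 WT M1 array of *Csf2ra* lies at 4.23, below the other 11 arrays.

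*Csf1* was higher after both stimuli and in both genotypes. In WT, its level was 1.76 and 1.82 in Con, 4.37 and 4.12 in M1, and 3.05 and 2.85 in M2, for cultures 1 and 2 in that order. In KpCKO, it was 2.88 and 2.06 in Con, 4.12 and 3.75 in M1, and 3.76 and 3.0 in M2. In WT the 3 stimuli did not overlap, and WT Con lay below each other array. In the order of the 6 group means, WT Con stood apart at the bottom, and every later neighbour overlapped, from KpCKO Con through WT M2, KpCKO M2 and KpCKO M1 to WT M1 at the top.

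The M1 rise of *Csf1* was 2.45 ± 0.22 (log2 difference ± SE, 5.47-fold) in WT and 1.47 ± 0.22 (2.76-fold) in KpCKO, with limma adjusted p = 0.00010 and 0.0015. The M2 rise was 1.16 ± 0.22 (2.23-fold, adjusted p = 0.0157) in WT and 0.91 ± 0.22 (1.88-fold, adjusted p = 0.0458) in KpCKO. The M2 call in KpCKO was lost whichever of its 4 arrays was left out (adjusted p between 0.0725 and 0.233), and it was lost after quantile normalization (0.0517), after normexp (0.0717) and without the culture in the model (0.182). The M1 rise was smaller in KpCKO than in WT by 0.98 (95% interval of the difference -1.72 to -0.25), which did not pass over all genes tested (limma adjusted p = 0.221).

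The probe of *Csf1* was printed 10 times on each array, which gives a measure of the spotting error. The standard error of the mean over the spots was at most 0.028 on any array, whereas the KpCKO Con arrays of the 2 cultures lay 0.82 apart. In Con, *Csf1* was higher in KpCKO than in WT by 1.12 in culture 1 and by 0.24 in culture 2, and in M2 by 0.71 and 0.15. In M1 it was lower in KpCKO, by -0.24 and -0.37. None of the 3 differences between the genotypes passed (limma adjusted p = 0.219 in Con, 0.361 in M1 and 0.441 in M2).

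Stromal cells also make M-CSF, and all 6 stromal markers were above background on all arrays. Their summed level, in multiples of the percentile, was 35.4 and 41.8 in WT Con against 54.4 and 28.8 in KpCKO Con for cultures 1 and 2. In M2 the sums were 37.9 and 34.5 in WT against 43.9 and 22.8 in KpCKO. In M1 they were 35.4 and 33.2 in WT and 42.1 and 25.0 in KpCKO. In Con, M1 and M2 the KpCKO sum was above that of WT in culture 1 and below it in culture 2. The *Csf1* difference between the genotypes was 1.12 and 0.24 in Con, for cultures 1 and 2. It was -0.24 and -0.37 in M1 and 0.71 and 0.15 in M2. In M1 against Con in WT 1 of the 6 markers rose (*Pdgfrb*, 0.69) and 1 fell (*Pdgfra*, -1.64), beside 63.2% of all genes called. Between the genotypes 0 of the 6 were called under any stimulus, beside 2.21%, 16.0% and 1.93% of all genes in Con, M1 and M2. The largest fall in KpCKO was that of *Dcn*, named after its values were seen, by -2.70, -2.74 and -2.72 in that order. The largest rise was that of *Pdgfrb*, by 0.47, 0.24 and 0.50. The part of stromal cells in the genotype values was not tested, and in bulk RNA more cells of a type and more RNA per cell cannot be told apart.

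**Figure D2:**
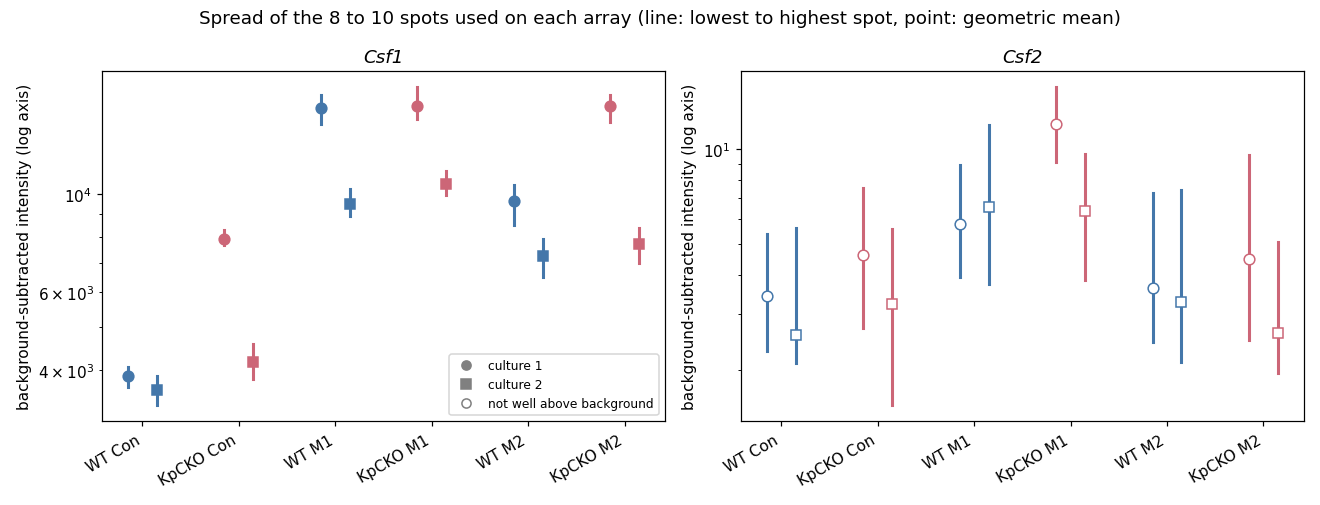
Background-subtracted intensity (log axis) of the replicated spots of *Csf1* and *Csf2* on each array, with the range from the lowest to the highest spot used as a line and their geometric mean as a point. The *Csf1* spots of an array span far less than the distance between Con and M1, whereas the *Csf2* spots lie between 1.54 and 15.8 units and none of the arrays was well above background.

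*Csf2* stayed near the background. Its mean intensity over the spots was 3.41 and 2.57 in WT Con, 4.62 and 3.23 in KpCKO Con, 5.78 and 6.57 in WT M1 and 11.98 and 6.36 in KpCKO M1. In M2 it was 3.64 and 3.28 in WT and 4.49 and 2.61 in KpCKO. The M1 arrays were the brightest 4 of the 12, but just 6 of 111 spots used were well above background, 4 of them on the KpCKO M1 array of culture 1 and 2 on the WT M1 array of culture 2. No fold is given for *Csf2*, since both sides of each comparison were at background on both arrays.

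*Csf3* rose in M1 in WT and was lower in KpCKO than in WT after M1. Its intensity reached 90.7 and 61.7 in WT M1, against 14.02 and 2.63 in KpCKO M1. It was between 1.87 and 5.07 on the 8 arrays of Con and M2, none of them well above background. Both WT M1 arrays and the KpCKO M1 array of culture 1 were well above background, and the KpCKO M1 array of culture 2 lay within the range of Con and M2. In log2 levels these were -3.06 and -3.15 in WT M1 and -6.01 and -8.23 in KpCKO M1.

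In WT, M1 raised *Csf3* at least 14.2-fold in the mean of the cultures, taking each Con array at the lowest signal well above background. That bound covers the dim Con signal and not the spread between arrays. The measured difference was 4.80 ± 0.69 (95% interval 3.16 to 6.45, limma adjusted p = 0.000895). After normexp background correction the difference was 1.80 (limma adjusted p = 0.0107). Normexp was run with an offset of 50 units, far above the Con intensities of *Csf3*, so this value cannot be set against that bound. *Csf3* entered the test through the WT M1 arrays alone. In KpCKO the measured difference was 1.42 ± 0.69 (95% interval -0.23 to 3.06, adjusted p = 0.131). That value turned on the KpCKO M1 arrays, being 2.56 without culture 2 and 0.27 without culture 1. With dim values raised to each array's lowest signal above background it was 0.93 and passed (limma adjusted p = 0.0023). In culture 2 both sides were then raised values, -6.38 in M1 and -7.13 in Con. That pass is therefore no measure of a *Csf3* rise in culture 2. Between the genotypes in M1, *Csf3* was lower in KpCKO by -2.95 in culture 1 and -5.08 in culture 2, a mean of -4.01 ± 0.69 (95% interval -5.66 to -2.37, limma adjusted p = 0.0150). The value of culture 2 has KpCKO at background, so that its size and that of the mean are not exact. With dim values raised as above, the mean was -3.09 (adjusted p = 0.000253), where raised values carry little spread of their own. It was the single gene of the family called between the genotypes in M1, where 16.0% of all genes were called, 1660 higher and 1920 lower in KpCKO (2030 higher and 1352 lower after quantile normalization). The test of a smaller M1 response gave -3.39 (adjusted p = 0.198), a value that rests on Con arrays at background.

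The *Csf3* call between the genotypes did not hold under each alternative. It was lost after normexp background correction (-1.41, adjusted p = 0.113), when the WT M1 sample of culture 2 was left out (adjusted p = 0.0778) and when the fit held the 4 M1 arrays alone (adjusted p = 0.161), and the methods' t-test did not call it. In M1 4 of 7 macrophage markers were also lower in KpCKO (*Adgre1*, *Itgam*, *Fcgr1* and *Cd14*), and the sum over the 7, in multiples of the percentile, was 1127 and 1372 in WT against 795.6 and 893.3 in KpCKO. After quantile normalization 3 of the 7 were called (without *Adgre1*), and after normexp 1 (*Cd14*). Their part in the *Csf3* value was not tested.

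Among the receptors, both genes of the β chain rose after both stimuli in both genotypes. *Csf2rb* stood at 5.66 and 5.67 in WT Con, 6.96 and 6.90 in WT M1 and 7.17 and 7.20 in WT M2. In KpCKO it stood at 6.02 and 5.89 in Con, 7.28 and 6.98 in M1 and 7.46 and 7.23 in M2. All 8 stimulated arrays were above all 4 Con arrays. The difference from Con was 1.26 ± 0.11 in M1 and 1.52 ± 0.11 in M2 in WT, and 1.18 ± 0.11 and 1.39 ± 0.11 in KpCKO (limma, highest adjusted p of the 4 values 0.0016).

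*Csf2rb2* rose in the same 4 comparisons. Its level was 6.55 and 6.29 in WT Con, 7.42 and 7.26 in WT M1 and 7.18 and 7.12 in WT M2. In KpCKO it was 6.71 and 6.46 in Con, 7.57 and 7.28 in M1 and 7.52 and 7.17 in M2. Again no stimulated array reached down to a Con array. The difference from Con was 0.92 ± 0.10 in M1 and 0.73 ± 0.10 in M2 in WT, and 0.84 ± 0.10 and 0.76 ± 0.10 in KpCKO (limma, highest adjusted p 0.0082). Over the 12 arrays the levels of *Csf2rb* and *Csf2rb2* had a Pearson r of 0.94, and *Csf1* and *Csf2rb2* one of 0.92, given as a description, since these arrays share their stimuli. The copies are alike in sequence, and how far a probe of one also binds the other was not tested.

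The 3 probes of *Csf2rb* rose in each of the 4 comparisons. In M1 in WT the probe A_52_P664853 rose by 2.23 ± 0.26, beside 1.26 ± 0.11 for the brightest probe A_52_P52618 and 1.16 ± 0.12 for the probe A_52_P492939. The difference between the probes was not tested. In M2 in WT the differences were 1.43, 1.52 and 1.64 in the same order. The M1 sizes of both β chain genes depended on the scaling. After quantile normalization the WT M1 difference was 0.36 for *Csf2rb* (adjusted p = 0.0143) and 0.068 for *Csf2rb2* (adjusted p = 0.489). On that scaling both were also higher in KpCKO than in WT in M1, *Csf2rb2* by 0.31 (adjusted p = 0.0459), a difference of 0.086 on the percentile scaling that did not pass.

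The ligand-binding chain of the GM-CSF receptor, *Csf2ra*, had 1 array far from the rest. Its level was 6.60 and 6.55 in WT Con, 7.54 and 4.23 in WT M1 and 6.51 and 6.61 in WT M2. In KpCKO it was 7.00 and 6.86 in Con, 7.59 and 7.61 in M1 and 7.24 and 6.90 in M2. The WT M1 value of culture 2 was a single spot that carried no outlier mark, and it lay 3.31 below that of culture 1. Of 24023 probes above background on both WT M1 arrays, 54 (0.225%) differed by as much, and the median difference was 0.23.

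With that value in the fit, *Csf2ra* passed in no comparison, and M1 against Con in WT was -0.69 ± 0.80. Without it, an alternative chosen after seeing the data, M1 against Con was 0.93 ± 0.15 in WT (95% interval 0.55 to 1.30, limma adjusted p = 0.0027) and 0.68 ± 0.13 in KpCKO (adjusted p = 0.0071). The 95% interval of KpCKO against WT in M1 was then -0.27 to 0.48. In Con and M2 every KpCKO array was above every WT array, by 0.35 and 0.51 on average, and neither passed without that value (adjusted p = 0.310 and 0.165).

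*Csf1r*, the M-CSF receptor, passed in none of the comparisons by its brightest probe. By that probe it stood at 7.07 and 7.24 in WT Con, 6.83 and 6.80 in WT M1 and 7.34 and 7.48 in WT M2. In KpCKO it stood at 6.79 and 7.00 in Con, 7.09 and 6.75 in M1 and 7.22 and 7.29 in M2. In WT the M1 arrays were lowest and the M2 arrays highest without overlap. In the order of all 6 means, 1 neighbouring pair did not overlap, KpCKO M2 and WT M2 at the top.

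The M1 difference of *Csf1r* in WT was -0.34 ± 0.15 (limma adjusted p = 0.0828) by the brightest probe A_51_P365885. The probe A_52_P602091 gave -0.52 ± 0.15 (adjusted p = 0.0206) and the probe A_52_P570471 gave -0.97 ± 0.20 (adjusted p = 0.0042), so that all 3 probes pointed down and 2 passed when each probe was tested on its own. In KpCKO the same probes gave 0.023, 0.0016 and -0.27, and none passed. The difference between the M1 responses of the genotypes was 0.36, 0.52 and 0.70 in the same order. It passed for none of the probes (limma adjusted p = 0.415, 0.293 and 0.280). After quantile normalization the brightest probe gave -1.23 in WT (adjusted p = 0.000559) and -0.54 in KpCKO (adjusted p = 0.0272). The M2 differences of the 3 probes were between 0.26 and 0.38 in WT and between 0.24 and 0.46 in KpCKO, and none passed.

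**Figure D3:**
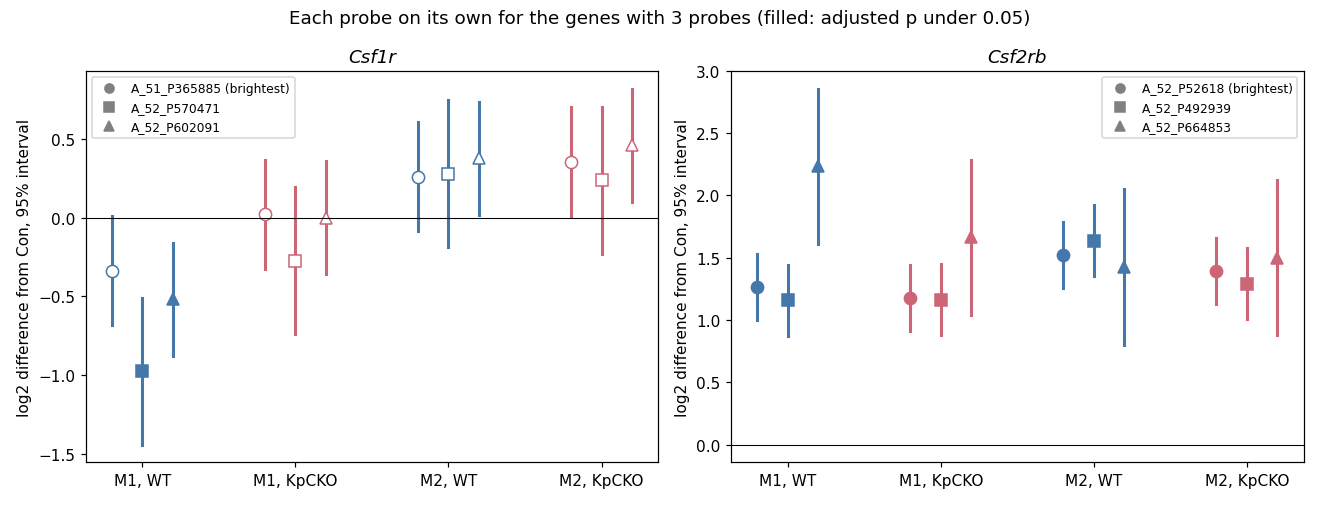
Log2 difference from Con with its 95% interval for each of the 3 probes of *Csf1r* and of *Csf2rb*, in M1 and M2 and in WT (blue) and KpCKO (red); filled symbols have an adjusted p under 0.05. The 3 *Csf1r* probes lie below 0 in M1 in WT, and every *Csf2rb* interval lies above 0.

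*Csf3r*, the G-CSF receptor, rose after M2 in WT. Its level was 2.02 and 2.02 in WT Con, 2.36 and 2.18 in WT M1 and 3.18 and 3.04 in WT M2. In KpCKO it was 2.70 and 3.07 in Con, 2.60 and 2.21 in M1 and 3.65 and 3.36 in M2. The M2 arrays of WT lay above its other arrays, and the KpCKO Con arrays lay above both WT Con arrays. The M2 difference was 1.08 ± 0.18 in WT (2.12-fold, limma adjusted p = 0.0105) and 0.62 ± 0.18 in KpCKO (adjusted p = 0.0773). The WT call was lost whichever of its 4 arrays was left out (adjusted p between 0.0630 and 0.0819).

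In Con, *Csf3r* was higher in KpCKO by 0.68 in culture 1 and 1.05 in culture 2 (mean 0.86 ± 0.18, 1.82-fold), with an adjusted p of 0.0734 over all genes. The differences between the genotypes were 0.14 ± 0.18 in M1 and 0.40 ± 0.18 in M2. M1 moved *Csf3r* by 0.25 ± 0.18 in WT and by -0.48 ± 0.18 in KpCKO, and neither passed (adjusted p = 0.268 and 0.0635; the KpCKO value passed after quantile normalization). The difference between these responses was -0.73 (95% interval -1.33 to -0.12, adjusted p = 0.250).

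Csf3r marks neutrophils as well as macrophages, and neutrophil markers were present. Of 9 with a probe, *Elane*, named after its values were seen, was at background on every array, and 8 could be tested. Their summed level, in multiples of the percentile, was 17.3 and 8.35 in WT Con, 18.3 and 9.59 in KpCKO Con and 16.8 and 7.99 in WT M2. The sums were higher in culture 1 than in culture 2 in all 6 groups. In M2 in WT 1 of the 8 was called, beside 16.8% of all genes. This was *Cxcr2*, named after its values were seen, with a rise of 3.14. The median of the 8 there was -0.11, and the largest fall was -1.38. In Con 0 of the 8 were called between the genotypes, beside 2.21% of all genes. In M1 and in M2 1 of the 8 was called between the genotypes, beside 16.0% and 1.93% of all genes. This was *Mmp8*, higher in KpCKO by 2.09 and 2.50. The median of the 8 was 0.071 in M1 and -0.36 in M2, and the largest falls were -0.61 and -0.85. In Con *Mmp8* was higher by 1.82, which did not pass, and the largest fall of the 8 was -0.42. The part of neutrophils in the *Csf3r* values was not tested. Among the markers of dendritic cells, lymphocytes, mast cells and progenitors, *Xcr1* (-1.05 in M1) was the single gene called between the genotypes.

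**Figure D4:**
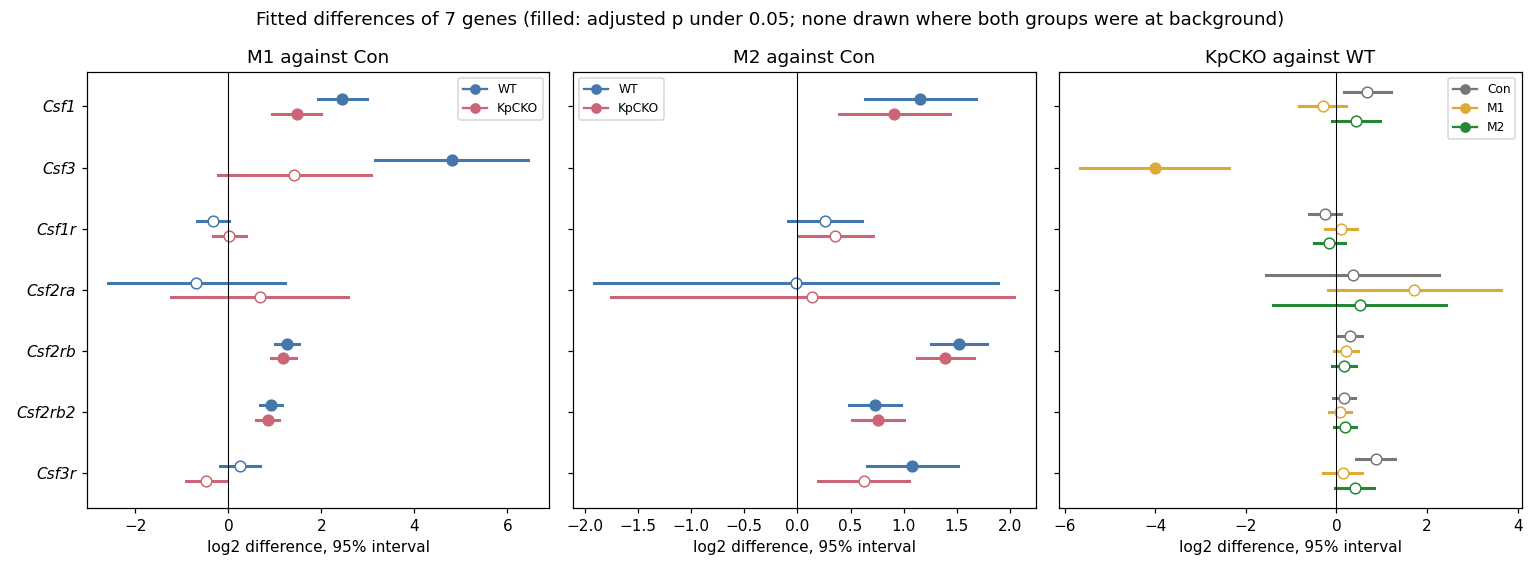
Fitted log2 differences with 95% intervals of the 7 genes tested, for M1 and M2 against Con in each genotype and for KpCKO against WT under each stimulus; filled symbols have an adjusted p under 0.05. The β chain genes and *Csf1* lie above 0 in M1 and M2 in both genotypes. *Csf3*, which entered the test through WT M1 alone, is the single filled symbol between the genotypes. The intervals of *Csf2ra* are wide because of 1 array.

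In all, limma called 4 of the 7 genes in M1 against Con in WT, where 63.2% of all genes tested were called, and 3 of 7 in KpCKO, where 50.2% were. Of the 4 in WT, *Csf3* entered the test through the WT M1 arrays alone. Among genes above background on all 12 arrays, *Csf1*, *Csf2rb* and *Csf2rb2* were called there. In M2 against Con limma called 4 of 7 in WT, against 16.8% of all genes, and 3 of 7 in KpCKO, against 10.2%. All calls against Con were rises. The model without the culture called 2 of 7 in M2 in WT (*Csf2rb* and *Csf3r*) and 1 of 7 in KpCKO (*Csf2rb*). Over all genes it called 1714 and 895, beside 3764 and 2290 with the culture. Leaving out each array in turn lost calls in both. The *Csf2rb* rise then lay between 1.44 and 1.60 in WT and between 1.33 and 1.46 in KpCKO.

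Between the genotypes 0 of 7 were called in Con, where 2.21% of all genes were, and 0 of 7 in M2, where 1.93% were. At an unadjusted p under 0.05 these counts were 3 (*Csf1*, *Csf2rb* and *Csf3r*) and 0, beside 3151 and 3190 of 22352 genes. The difference of the M1 responses called 0 of 7 (0.0716% of all genes) and that of the M2 responses 0 of 7 (0.00895%), with 3 and 0 at an unadjusted p under 0.05, beside 3662 of 22351 and 450 of 22352 genes. The unadjusted methods' t-test called 3 of 7 in Con, where it called 1618 of all genes tested, and 0 of 7 in M2.

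The list of CSF family signalling holds further ligands and receptors of the family, kinases, STAT factors, inhibitors and adaptors, and 32 of its 35 genes could be tested. In M1 19 rose and 2 fell in WT, and 18 rose and 3 fell in KpCKO, where 63.2% and 50.2% of all genes were called, with medians of 0.93 and 0.70 beside 0.13 and 0.028 over all genes. In M2 9 rose and 5 fell in WT, and 8 rose and 3 fell in KpCKO, where 16.8% and 10.2% of all genes were called, with medians of 0.19 and 0.18 beside -0.0092 and 0.0081.

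The largest rise in M1 in WT was that of *Socs1*, an inhibitor of JAK kinases, by 8.74, and the largest fall that of *Gab3*, an adaptor of M-CSF receptor signalling, by -3.26. *Cish*, which encodes the inhibitor CIS, rose by 5.76 in M1 and by 6.92 in M2 in WT. *Jak2*, the kinase bound to the β chain and to Csf3r, rose by 4.79 in M1 and 1.98 in M2.

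**Figure D5:**
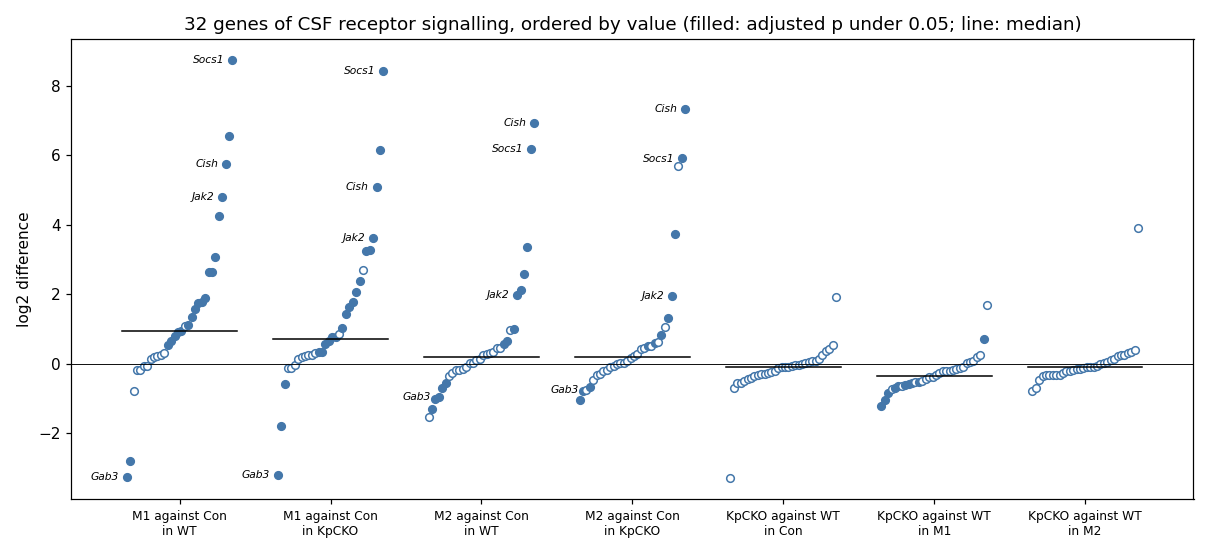
Log2 differences of the 32 tested genes of CSF receptor signalling in 7 comparisons, each column ordered by value, with a line at the median and filled symbols for an adjusted p under 0.05. In M1 the filled symbols lie mostly above 0 in both genotypes, and between the genotypes in M1 the median is below 0.

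Between the genotypes, 0 of these 32 were called in Con and in M2. In M1 1 was higher and 9 were lower in KpCKO, where 16.0% of all genes were called, with a median of -0.36 beside -0.086 over all genes. After quantile normalization 1 was higher and 7 lower, and after normexp 1 was higher and 4 lower. *Jak2* was lower by -1.21 (limma adjusted p = 0.0118), *Cish* by -1.05 and the PI3 kinase subunit *Pik3cd* by -0.85. The Src family kinase *Lyn*, the adaptors *Gab2* and *Sh2b3*, *Stat3*, *Stat5b* and the ubiquitin ligase *Cbl* were lower by between -0.70 and -0.53. *Inpp5d*, which encodes the phosphatase SHIP1, was higher by 0.71. The difference of the M1 responses called 0 of the 32.

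Of 12 transcription factors known at CSF receptor genes, 5 rose and 6 fell in M1 in WT, and 5 rose and 5 fell in KpCKO, beside 63.2% and 50.2% of all genes called. *Irf8* rose most, by 3.33 in WT and 2.70 in KpCKO. In M1, *Cebpa* (2.81) was higher in KpCKO than in WT, while *Maf* (-1.84), *Cebpd* (-1.44), *Ets2* (-1.42) and *Irf8* (-0.54) were lower. None of the 12 was called between the genotypes in Con or in M2. In M2 3 rose and 4 fell in WT, and 3 rose and 2 fell in KpCKO, beside 16.8% and 10.2% of all genes called.

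Ligand mRNAs of this family carry AU-rich elements that set how fast they decay. Of 11 genes of AU-rich mRNA decay and stability, 6 rose and 2 fell in M1 in each genotype, beside 63.2% of all genes called in WT and 50.2% in KpCKO. *Zc3h12a*, which encodes an RNase that cuts cytokine mRNAs, rose most in WT, by 2.51, and *Zfp36l2* fell most, by -2.66. After quantile normalization 4 rose and 3 fell in WT, and the median turned from 0.75 to -0.10. In KpCKO, *Zfp36l1* was lower by -1.37 in Con and -1.39 in M1, and in M1 *Zfp36*, which encodes tristetraprolin, was lower by -0.57 and *Zc3h12a* by -0.65. In M2 2 rose and 1 fell in WT, and 3 rose and 1 fell in KpCKO, beside 16.8% and 10.2% of all genes called.

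Csf1r and M-CSF are also shed from the cell surface. Of 4 genes of receptor and ligand shedding, 3 rose and 1 fell in M1 in WT, where 63.2% of all genes were called, led by *Rhbdf2* (2.18), which matures the sheddase ADAM17, and *Rhbdf1* (-1.02). In KpCKO 2 rose and 0 fell, where 50.2% of all genes were called, and *Rhbdf1* was higher in KpCKO than in WT in M1 by 1.47. In M2 0 of the 4 were called in either genotype.

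For each tested gene, the 3 most alike of 14457 named genes over the 12 arrays were found by Pearson r, as a description. *Csf1* was most like *Fzd7* (0.98), *Kmt5a* (0.98) and *Polr2g* (0.98), and *Csf3* most like *Ccm2* (0.96), *Specc1l* (0.95) and *Ankrd45* (0.95). *Csf2rb* was most like *Pip5k1c*, *Clip2* and *Gna15* (0.97, 0.97 and 0.96), and *Csf2rb2* most like *Nek6*, *Kmt5a* and *Aff1* (0.96 each). *Kmt5a* was thus named for both *Csf1* and *Csf2rb2*. *Csf1r* was most like *Tmem161a* (0.93), *Rpl13a* (0.92) and *Ppp1r12c* (0.92). *Csf3r* was most like *Dtx1*, which was above background on 2 arrays, *Hmgn2* and *Tfeb* (0.94 each). *Csf2ra* was most like *Csnk1g3* (0.96), *Rpl11* (0.96) and *Me3* (0.95), a likeness that includes its 1 distant array.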

How the data were processed

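RNA of 12 samples was hybridised to 1-colour Agilent arrays. Per the file headers, the authors ran version 10.7.3.1 of Agilent's Feature Extraction, and they deposited background-subtracted intensities with flags. They also deposited a matrix of log2 values, which over 40749 shared probes equals the log2 intensity less the array's 75th percentile and the probe's median (slopes 0.9996 to 1.0004, column medians -0.07 to 0.31). The other columns used, the flags, are scores of 0 or 1 as deposited. Arrays are not counted reads, so their number limits the precision.

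Outlier spots were left out and spots averaged on the log2 scale, and 26690 of 41174 probes were matched through their accession to 18217 symbols. Each gene was read by its brightest probe. It entered limma 3.58.1 (R 4.3.3) if the 2 arrays of some group were well above background. The model had 6 groups and the culture as terms (residual degrees of freedom 5, prior 1.92), and p-values were adjusted by Benjamini-Hochberg and held to 0.05. Adjusted p-values are over all genes tested. The script was tested on simulated data. The description of the series pairs the arrays by culture, and in 15 pairs of groups the deviations of 22080 genes of the same culture correlated at 0.16 to 0.60. The named genes are the 8 members, list genes called between the genotypes or largest in M1 in WT, *Keap1* and *Nqo1*, and the 3 most alike genes. *Cxcr2*, *Dcn* and *Elane* were named after their values were seen. The members and lists were chosen with earlier results of these data known. Of 105 list genes 99 had a probe, and the other genes were not analysed here. The values of 1 list gene are not reported here. Alternatives were other normalizations, filters and probe rules, the methods' unpaired t-test, other blocks and leaving out each array. Normexp added an offset of 50 units to every signal, which makes log2 differences of dim probes smaller. Python 3.11.15 with pandas 2.3.3 read the files, and matplotlib 3.10.9 drew the plots.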

Additional observations from a re-analysis of the deposited data

How the results depend on the processing

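Of the 15 differences of single genes that passed, all kept their direction in 253 repeats under other settings, and 206 of these repeats also passed. Counts of genes of the family that passed moved as follows, and the counts over all genes, given below, moved too. In M1 in KpCKO (3), quantile normalization gave 5. In M2 in WT (4), the fit with no replicate block gave 2, and leaving out each array gave 1 to 2. In M2 in KpCKO (3), no replicate block gave 1, the 4 arrays compared alone 0, the unadjusted methods' t-test 1, and leaving out each array 1 to 2. Without the block no other call changed. Between the genotypes in Con (0), genes above background on all 12 arrays gave 1 (*Csf3r*) and the unadjusted methods' t-test 3. Between the genotypes in M1 (1), quantile normalization gave 3 (*Csf2rb*, *Csf2rb2* and *Csf3*), and normexp, the arrays compared alone and both forms of the methods' t-test 0. The *Csf3* difference lay between -5.16 and -2.87 on leaving out each array. The filter on all 12 arrays also gave 0, but *Csf3* was not tested under it, so that its call could not be kept. For the difference of the M1 responses (0), raising dim values to each array's lowest signal above background gave 1 (*Csf3*), and leaving out each array 0 to 1 (*Csf2ra*, when the first WT M1 sample was left out). The *Csf3* value with dim values raised rests on raised Con values in both genotypes. The adjusted methods' t-test gave 0 in M1 in KpCKO and in M2 in both genotypes. With no filter on dim probes, *Csf2* passed in M1 in both genotypes. The cause of these changes was not tested.

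Some values that had not passed turned in sign. *Csf1r* in M1 in KpCKO was -0.54 after quantile normalization, -0.083 as the mean of its probes, and between -0.20 and 0.25 on leaving out each array. *Csf2ra* in M1 in WT was 0.93 without its distant value, and between -2.31 and 0.93 on leaving out each array. Its difference of the M1 responses was -0.25 without that value, and between -0.25 and 2.98. *Csf2ra* lay between -0.44 and 0.42 in M2 in WT and between -0.15 and 0.43 in M2 in KpCKO. Between the genotypes in M1, *Csf2rb2* was -0.046 after normexp, *Csf1r* lay between -0.12 and 0.33 and *Csf3r* between -0.039 and 0.31.

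Over all genes, the settings other than the methods' t-test called 9297 to 18026 genes in M1 in WT (14129), 6951 to 11803 in KpCKO (11229), 934 to 4388 in M2 in WT (3764) and 1 to 2605 in KpCKO (2290). Between the genotypes they called 0 to 593 in Con (494), 0 to 4351 in M1 (3580) and 0 to 498 in M2 (431), and 0 to 537 for the difference of the M1 responses (16). Normexp moved the share of rises among calls from 51.2% to 61.5% in M2 in WT and from 55.5% to 66.2% in KpCKO, and that of genes higher in KpCKO from 66.6% to 55.1% in M2. Signal over background limits *Csf2* and *Csf3*, and 2 arrays per group limit every value.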
